A study of Mus musculus with 8 samples.

Results

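The Dynlt1 copies, the other dynein light chains, the dynein heavy chain and the neighbouring gene Tmem181a were followed in RNA of the prefrontal cortex, in a mouse line that models Fabry disease. The set holds 9 genes of 34650 gene names on the array, measured by 10 probes of 55681. They were Dynlt1a, Dynlt1c, Dynlt1f and Tmem181a on chromosome 17, and Dynlt3, Dynll1, Dynll2, Dynlrb1 and Dync1h1 on other chromosomes. They were chosen by name, in a set selected on the log2 difference between genotypes and on chromosome position, so their genotype differences are a description and carry no test. RNA came from 4 mice labelled α-Gal A(-/0) and 4 labelled wildtype, all male, C57BL/6J by label and aged 20 to 24 weeks, with 1 array per mouse. α-Gal A(-/0) males lack α-galactosidase A, the lysosomal enzyme encoded by the X-linked gene Gla, whose loss causes Fabry disease. The methods give the background of the α-Gal A(-/0) line as C57BL/6 and the wildtype mice as C57BL/6J. Per the same source both genotypes came from separate inbred colonies, so genotype and colony cannot be told apart in these arrays.

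The 8 arrays lay on 1 slide, where row 1 held α-Gal A(-/0) replicate 1 and wildtype replicates 1 to 3, and row 2 held the others. Between 29934 and 36131 probes were well above background on the α-Gal A(-/0) arrays, and between 35639 and 38227 on the wildtype arrays. The genotypes did not differ in this number beyond the spread between arrays (exact permutation test, two-sided, p = 0.171, adjusted over 3 quality measures p = 0.200). α-Gal A(-/0) replicate 2 had the lowest number and wildtype replicate 1 the highest. The probe for Gla read a log2 signal of 17.15 ± 0.03 in the α-Gal A(-/0) arrays and 17.09 ± 0.07 in the wildtype arrays (SD, n = 4), and that for Actb, a reference gene, differed by -0.07. Whether this probe lies in the disrupted part of the gene is not given in the sources used here, so it does not check the labels, on which every direction below rests. In bulk tissue, fewer cells of a type and less RNA per cell cannot be told apart. Slc17a7 and Neurod6, markers of excitatory cortical neurons, were well above background on all 8 arrays and differed by -0.03 ± 0.09 and -0.22 ± 0.12 (limma, log2, SE, adjusted p = 0.92 and 0.54). Summed over 4 markers each, the linear signal of oligodendrocytes ran from 28843 to 30237 in α-Gal A(-/0) and from 22508 to 27468 in wildtype. That of astrocytes ran from 18421 to 19764 and from 20355 to 21618. Higher in α-Gal A(-/0) were 4 of 4 oligodendrocyte markers and 0 of 4 astrocyte markers. In each list 2 markers did not overlap between genotypes, against 8.42% of all genes. By limma 0 were called in either list, against 0.931% of all genes, so nothing is read from that count. The part of these summed signals in the values below was not tested.

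Cytoplasmic dynein is the motor that carries vesicles, organelles and signaling endosomes toward the minus ends of microtubules, which in axons means toward the cell body. Its heavy chain, encoded by Dync1h1, holds the motor domain, and 3 families of small light chains, the Tctex, LC8 and roadblock families, sit on its tail and help to assemble the complex and to hold cargo. Dynlt1 and Dynlt3 encode Tctex light chains, Dynll1 and Dynll2 the LC8 light chains, and Dynlrb1 a roadblock light chain. In the mouse, Dynlt1 is present as several close copies on proximal chromosome 17, with Tmem181a, a membrane protein gene, and Tmem181 pseudogenes among them. In the RefSeq gene order the run was Tmem181a, Dynlt1a, Dynlt1b, Tmem181b-ps, Dynlt1c, Tmem181c-ps and Dynlt1f, that is 4 Dynlt1 genes and 3 Tmem181 genes.

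The copies are close enough in sequence that an array probe does not always belong to 1 of them. Probes are 60 bases long, and their positions come from the array's own annotation, in mm9. The Dynlt1f probe, at chr17:6606983-6607042 on the plus strand, is listed for transcripts of Dynlt1f, Dynlt1c and Dynlt1b, and so is the Dynlt1c probe at chr17:6812527-6812586 on the plus strand. The Tmem181a probe at chr17:6305711-6305770 on the plus strand is listed for Tmem181a, Tmem181b-ps and Tmem181c-ps. The Dynlt1a probe at chr17:6309637-6309696 on the minus strand is listed for transcripts of Dynlt1a alone, and each dispersed probe for 1 gene. Of the 60 bases of the Dynlt1a probe, however, 59 recur as their reverse complement in an interval probe at chr17:6608648-6608707 beside Dynlt1f, which was not well above background on any array. The listing therefore does not show that the probe reads Dynlt1a alone. The mm9 design put the Dynlt1f probe before the Dynlt1c probe and both on the plus strand. The later assembly behind the RefSeq order has Dynlt1c first and Dynlt1f on the minus strand. Distances in kb and places such as beside Dynlt1f therefore hold for the mm9 design only. Each of these probes lies in a listed transcript and therefore in exon sequence, while an mm9 annotation that would separate coding and untranslated bases was not used here. The Dynlt1f probe is shown in full because part of it also occurs, as its reverse complement, in a probe for an intergenic RNA interval at chr17:6311311-6311370 on the plus strand, beside Dynlt1a. Capitals mark the 46 bases that pair.
Dynlt1f: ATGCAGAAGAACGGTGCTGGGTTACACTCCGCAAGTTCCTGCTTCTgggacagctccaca
interval probe opposite Dynlt1f: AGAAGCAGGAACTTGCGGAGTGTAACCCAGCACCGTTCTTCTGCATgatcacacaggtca

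The first 30 bases of the other 3 probes on which the results turn identify them.
Dynlt1a: acatatttagaattttacagcttacagaat
Dynlt1c: ggtggaaacagctctactttctgaaatgat
Tmem181a: gagcccgtatgcagtcatgaggagaagtta

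The likeness of the copies extended to their upstream sequence. RefSeq promoter windows were found for Dynlt1c and Dynlt1f and matched over 142 bases upstream of both annotated starts, with 3 differences (97.9% identity). In GRCm38.p6 the stretch lies at chr17:6601529-6601670 on the plus strand for Dynlt1c and at chr17:6655940-6656081 on the minus strand for Dynlt1f. It is printed to show how little separates the copies, and capitals mark the bases that differ.
Dynlt1c upstream: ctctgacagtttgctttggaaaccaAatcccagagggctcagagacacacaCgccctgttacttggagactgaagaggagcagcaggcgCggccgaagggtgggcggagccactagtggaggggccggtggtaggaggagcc
Dynlt1f upstream: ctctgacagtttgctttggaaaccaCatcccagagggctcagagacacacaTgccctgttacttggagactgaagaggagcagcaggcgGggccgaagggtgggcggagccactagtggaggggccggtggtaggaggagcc

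The Dynlt1 probes were brighter on every α-Gal A(-/0) array than on any wildtype array. All signals below are log2 intensities after quantile normalization over the 8 arrays. The Dynlt1c probe read 12.95, 13.01, 13.09 and 13.00 in α-Gal A(-/0) replicates 1 to 4, and 12.40, 11.59, 11.68 and 11.77 in wildtype replicates 1 to 4. The α-Gal A(-/0) arrays were nearly level, and wildtype replicate 1 stood between them and the other wildtype arrays. The genotype difference was 1.16 ± 0.17 (log2, SE, n = 4 and 4), or 2.23-fold. The Dynlt1f probe read 12.48, 12.42, 12.42 and 12.57 in α-Gal A(-/0) replicates 1 to 4 and 11.85, 10.99, 11.11 and 11.19 in wildtype replicates 1 to 4. The order of the arrays was the same, with wildtype replicate 1 again in between, and the difference was 1.18 ± 0.17 (log2, SE), or 2.27-fold. As these probes share their listed transcripts, they are not separate measurements of Dynlt1c and Dynlt1f.

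Dynlt1a, whose probe is listed for 1 copy but has sequence in common with the Dynlt1f neighbourhood, gave a dim signal that was nevertheless well above background on all 8 arrays. It read 6.19, 5.88, 6.32 and 6.05 in α-Gal A(-/0) replicates 1 to 4 and 5.60, 5.34, 5.01 and 5.22 in wildtype replicates 1 to 4. The genotypes did not overlap, and wildtype replicate 1 was the highest wildtype array here too. The difference was 0.82 ± 0.14 (log2, SE), or 1.76-fold. With normexp background correction on the mean signals it was 0.36.

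Tmem181a, whose protein spans the membrane and is not part of dynein, had the widest gap of the set. Its probe read 12.89, 12.71, 12.76 and 12.70 in α-Gal A(-/0) replicates 1 to 4, and 12.01, 10.56, 10.54 and 10.69 in wildtype replicates 1 to 4. Wildtype replicate 1 lay 1.41 above the mean of the other 3 wildtype arrays and 0.76 below the α-Gal A(-/0) mean. The genotype difference was 1.81 ± 0.31 (log2, SE), or 3.52-fold.

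The 4 chromosome 17 members passed an adjusted p of 0.05 in limma, as did 0.306% of all 34326 tested probes in the same direction. The genotypes did not overlap in these 4 members, as in 3.08% of all tested probes in that direction. Nothing is read from either count, since this contrast chose the members. The calls rested on the arrays included: 4 members were called without wildtype replicate 1, 2 without α-Gal A(-/0) replicate 2, and 0 when any 1 of the other 6 arrays was left out.

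**Figure D1:**
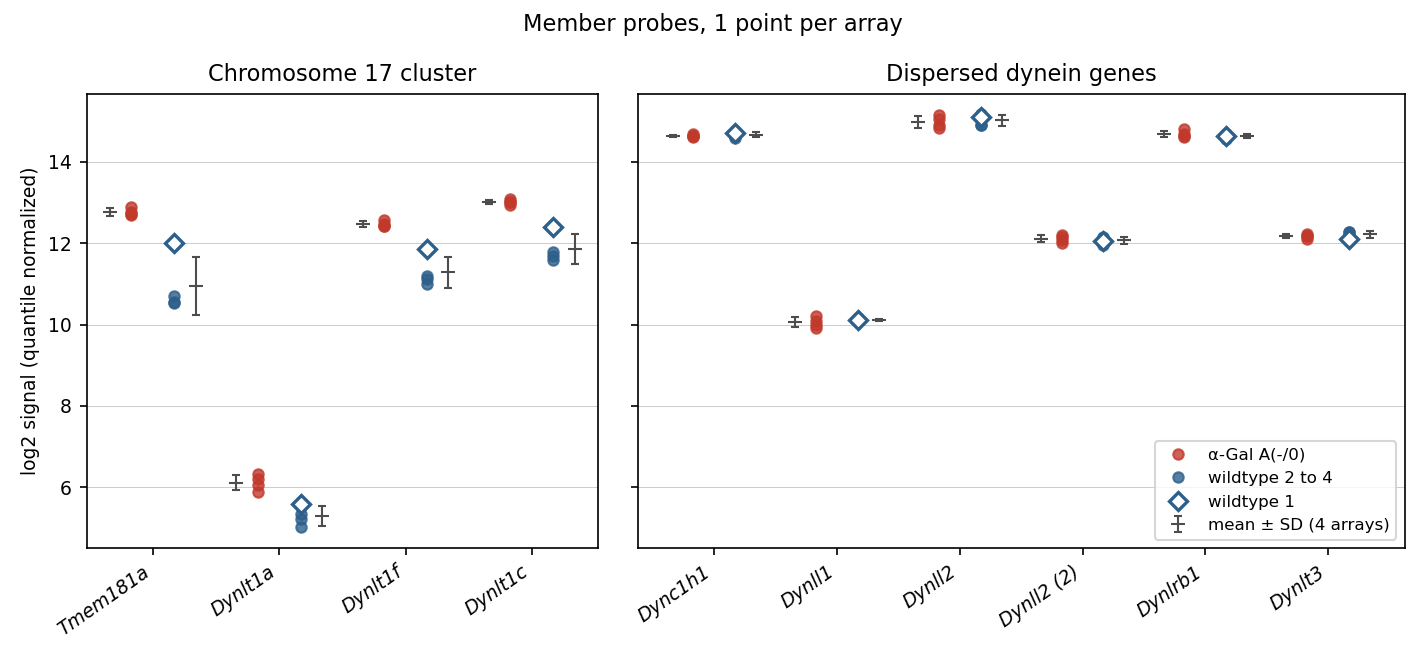
Log2 signal (quantile normalized) of the 10 member probes, 1 point per array, with the mean and SD of the 4 arrays of each genotype beside the points. The 4 α-Gal A(-/0) arrays lie above all wildtype arrays for Tmem181a, Dynlt1a, Dynlt1f and Dynlt1c, wildtype replicate 1 (open diamond) lies highest among the wildtype arrays for each of them, and the genotypes overlap in the 6 probes of the dispersed dynein genes.

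Wildtype replicate 1 held an intermediate level in all 4 chromosome 17 members. Relative to the mean of the other 3 wildtype arrays it was 1.65-fold higher for Dynlt1c, 1.68-fold for Dynlt1f, 1.32-fold for Dynlt1a and 2.66-fold for Tmem181a. The α-Gal A(-/0) mean was in turn 1.53-fold above wildtype replicate 1 for Dynlt1c, 1.54-fold for Dynlt1f, 1.43-fold for Dynlt1a and 1.69-fold for Tmem181a. Without this array, the SD over the wildtype arrays dropped from 0.37 to 0.09 for Dynlt1c, from 0.39 to 0.10 for Dynlt1f, from 0.24 to 0.16 for Dynlt1a and from 0.71 to 0.08 for Tmem181a. The genotype difference without it was 1.34 ± 0.07 for Dynlt1c, 1.37 ± 0.08 for Dynlt1f, 0.92 ± 0.13 for Dynlt1a and 2.17 ± 0.08 for Tmem181a (log2, SE, n = 4 and 3). For Dynlt1c, Dynlt1f and Tmem181a the wildtype spread was thus mostly the distance of 1 mouse from the other 3, and for Dynlt1a less so. The intermediate level was noticed in the data rather than sought. Before normalization this array was also the brightest, with a median processed signal of 93.9 against 76.1 to 84.3 on the other wildtype arrays and 70.7 to 77.3 on the α-Gal A(-/0) arrays, and its part in the intermediate level was not tested.

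The dispersed dynein genes showed no such pattern. Dynlt3, the closest relative of Dynlt1 among the members and itself X-linked, read 12.18, 12.11, 12.21 and 12.18 in α-Gal A(-/0) replicates 1 to 4 and 12.11, 12.19, 12.28 and 12.28 in wildtype replicates 1 to 4. The genotypes overlapped, and wildtype replicate 1 was the lowest wildtype array. Dync1h1, the motor subunit, read 14.68, 14.63, 14.60 and 14.62 against 14.70, 14.75, 14.59 and 14.64. Dynlrb1, the roadblock light chain, read 14.64, 14.61, 14.69 and 14.80 against 14.64, 14.56, 14.68 and 14.62. For both, the arrays of the genotypes were interleaved.

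Of the LC8 light chains, which also bind many proteins outside dynein, Dynll1 read 9.99, 9.93, 10.20 and 10.10 in α-Gal A(-/0) replicates 1 to 4 and 10.11, 10.08, 10.11 and 10.15 in wildtype replicates 1 to 4. Dynll2 had 2 probes, with differences of -0.04 ± 0.10 and 0.04 ± 0.07 (log2, SE). Over the 6 dispersed probes the genotype differences ran from -0.06 to 0.06, with standard errors of 0.06 to 0.10, and wildtype replicate 1 departed from the other wildtype arrays by -0.14 to 0.12. Of these 6 probes 0 were called by limma, where 0.883% of all tested probes were, and 0 had genotypes that did not overlap, where 7.94% of all did.

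The tandem copies and the dispersed genes were then set against each other. The mean over the 3 Dynlt1 probes was 10.54, 10.44, 10.61 and 10.54 in α-Gal A(-/0) replicates 1 to 4 and 9.95, 9.31, 9.27 and 9.40 in wildtype replicates 1 to 4. The genotype means were 10.53 ± 0.07 and 9.48 ± 0.32 (SD, n = 4), a difference of 1.05. The mean over the brightest probe of each of the 5 dispersed genes was 13.31 ± 0.03 and 13.33 ± 0.02, a difference of -0.02. The difference of these differences was 1.07, and 1.23 without wildtype replicate 1. Within slide row 1 (1 α-Gal A(-/0) and 3 wildtype arrays) the Dynlt1 difference was 1.03 and that of Tmem181a 1.86. Within row 2 (3 and 1 arrays) the values were 1.13 and 2.03, against -0.00 and -0.02 for the dispersed genes in rows 1 and 2.

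The same order of arrays ran through the chromosome 17 stretch around the copies. Apart from the members, 121 probes lay within 1 Mb of a Dynlt1 probe, of which 64 were tested. Of these 64 probes 3 were called and all 3 were higher in α-Gal A(-/0), against 0.883% of all tested probes in either direction. In limma 21 had an unadjusted p under 0.05, but the share of all probes under that cut was not taken, so nothing is read from it. Without wildtype replicate 1, 9 of 64 were called, again all higher, against 0.259% of all probes in that direction. The called probes, with the 4 members, spanned chr17:6288982-6831232, or 542 kb. The same counts depended on the arrays, since 0 of 64 were called without α-Gal A(-/0) replicate 3 or 4 or without wildtype replicate 2, 3 or 4, 1 of 64 without α-Gal A(-/0) replicate 1 and 2 of 76 without α-Gal A(-/0) replicate 2.

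The 3 called probes target intergenic RNA intervals. A minus-strand probe at chr17:6831173-6831232, 522 kb beyond the Dynlt1a probe, read 11.55, 11.39, 11.42 and 11.57 in α-Gal A(-/0) replicates 1 to 4 and 10.87, 9.70, 9.58 and 9.63 in wildtype replicates 1 to 4. As in the members, wildtype replicate 1 lay between the groups, and the difference was 1.54 ± 0.27 (limma, log2, SE, adjusted p = 0.049). A probe of the same interval at chr17:6831099-6831158 differed by 1.72 ± 0.29 (limma, adjusted p = 0.042). The third, at chr17:6607549-6607608 on the minus strand and next to the Dynlt1f probe, differed by 1.01 ± 0.17 (limma, adjusted p = 0.043). These probes were tested with the members known, and neighbouring probes of 1 interval report on the same RNA.

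Among the probes that missed the threshold, Tmem181b-ps, the pseudogene of Tmem181a, read 9.49, 8.68, 9.21 and 8.35 in α-Gal A(-/0) replicates 1 to 4 and 8.20, 6.52, 6.13 and 6.14 in wildtype replicates 1 to 4. The genotypes did not overlap, and the difference was 2.19 ± 0.48 (limma, adjusted p = 0.11). The interval probe that pairs with the Dynlt1f probe differed by 1.21 ± 0.32 (limma, adjusted p = 0.20). An interval probe at chr17:6291151-6291210 was well above background on 4 α-Gal A(-/0) arrays, with 5.67 to 6.03, and on wildtype replicate 1, with 5.21. It was not well above background on the other 3 wildtype arrays, so its difference has no exact size.

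A pair of interval probes shows again how copies share signal. They lie on either side of Dynlt1a and on opposite strands, at chr17:6288982-6289041 (minus) and chr17:6457777-6457836 (plus), and share the 56 bases in capitals.
interval probe before Dynlt1a: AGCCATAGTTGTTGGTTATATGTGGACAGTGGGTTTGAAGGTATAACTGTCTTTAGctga
interval probe after Dynlt1a: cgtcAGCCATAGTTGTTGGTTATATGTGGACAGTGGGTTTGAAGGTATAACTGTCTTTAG
Their genotype differences were 1.53 ± 0.31 and 1.61 ± 0.32 (limma, adjusted p = 0.086 and 0.075). Among the 53 probes of the stretch that are not members, 14 shared a run of at least 30 bases with another probe on the array, so probes here do not count independently.

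The stretch was not shifted throughout. Of its 27 tested probes, members included, 15 differed by more than 0.5 toward α-Gal A(-/0), 10 by less than 0.25 in either direction, and 2 lay between. In all 15, wildtype replicate 1 was above the other 3 wildtype arrays and below all 4 α-Gal A(-/0) arrays, and 12 of the 15 were well above background on all 8 arrays. Outside the stretch, 41 probes within 1 Mb were tested and 0 were called by limma. The ends of the stretch were set by the probes called without wildtype replicate 1. Few or no calls outside it follow from that choice, so nothing is read from this count. The differences of these 41 probes ran from -0.51 to 1.06 with a median of -0.03. The interval probe nearest past the far end that kept the order of arrays, at chr17:6860945-6861004, differed by 0.58 ± 0.15 (limma, adjusted p = 0.17). The highest belonged to Gm9992, where α-Gal A(-/0) replicate 2 alone read 11.02 and the other 7 arrays between 7.30 and 7.84. The nearest measured genes on both sides were not called. Tulp4 differed by -0.24 ± 0.11 (limma, adjusted p = 0.45), and Ezr, the membrane linker ezrin, by -0.06 ± 0.11 (limma, adjusted p = 0.86). Sytl3, a synaptotagmin-like gene next to Ezr, differed by -0.09 and -0.47 at its 2 tested probes (limma, adjusted p = 0.68 and 0.29). Synj2, a lipid phosphatase gene 265 to 299 kb before the Dynlt1a probe, was lower at its 3 probes by values that missed the threshold, the widest being -0.51 ± 0.10 (limma, adjusted p = 0.078). That probe passed it with normexp background correction and with limma's trend and robust setting.

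**Figure D2:**
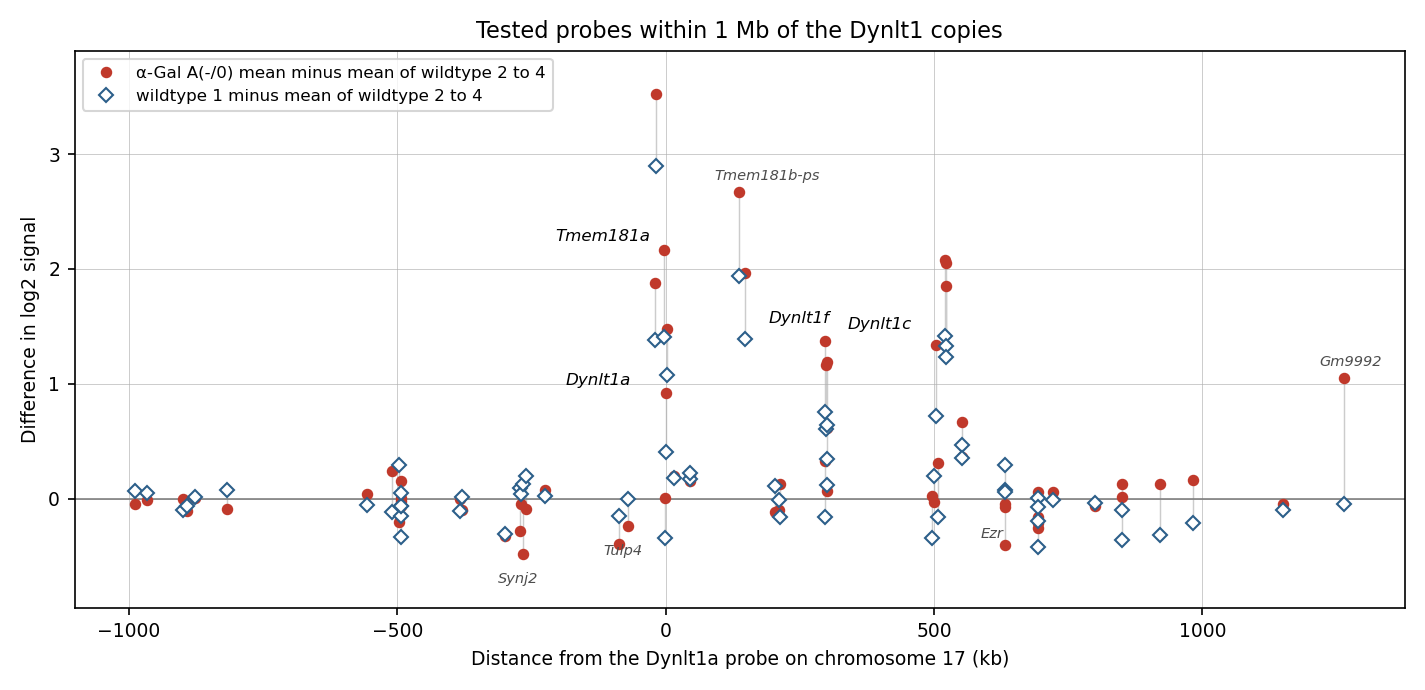
Difference in log2 signal from the mean of wildtype replicates 2 to 4, for the α-Gal A(-/0) mean (filled circles) and for wildtype replicate 1 (open diamonds), at every tested probe within 1 Mb of a Dynlt1 probe, against the distance from the Dynlt1a probe in kb. The probes called without wildtype replicate 1 lie by definition in a stretch of 542 kb, and in them wildtype replicate 1 sits between 0 and the α-Gal A(-/0) mean. Probes near 0 lie among them and on both sides. The highest point is the probe that was well above background on 1 wildtype array, so its height has no exact size.

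The intermediate level of wildtype replicate 1 was compared with the rest of the array over the 201 probes called without it (0.585% of those tested then), so that it had no part in choosing them. Its place was expressed on a scale where 0 is the mean of wildtype replicates 2 to 4 and 1 the α-Gal A(-/0) mean, in log2. Over the 13 such probes of the stretch, the median place was 0.65 and the range 0.44 to 0.82. The upper end came from the probe at background in wildtype replicates 2 to 4, whose place has no meaning, and over the 11 probes well above background on all 8 arrays the median was 0.65 and the range 0.44 to 0.74. For the members it was 0.54 in Dynlt1c, 0.55 in Dynlt1f, 0.44 in Dynlt1a and 0.65 in Tmem181a. On the linear signal scale the median over the 13 probes was 0.48, with a range of 0.36 to 0.61, and 0.36 to 0.60 over those 11. Over the 188 other probes the median place was 0.01, with quartiles of -0.08 and 0.12. Of them 8 (4.26%) lay between 0.4 and 0.85. These bounds enclose the range seen in the stretch, so that all 13 of its probes lay there is no result. Of the 145 others well above background on all 8 arrays, 6 (4.14%) lay there. Wildtype replicate 1 was therefore close to the other wildtype arrays in most genotype differences elsewhere. With 1 array there is no test of this, and the comparison was made after its level had been seen.

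**Figure D3:**
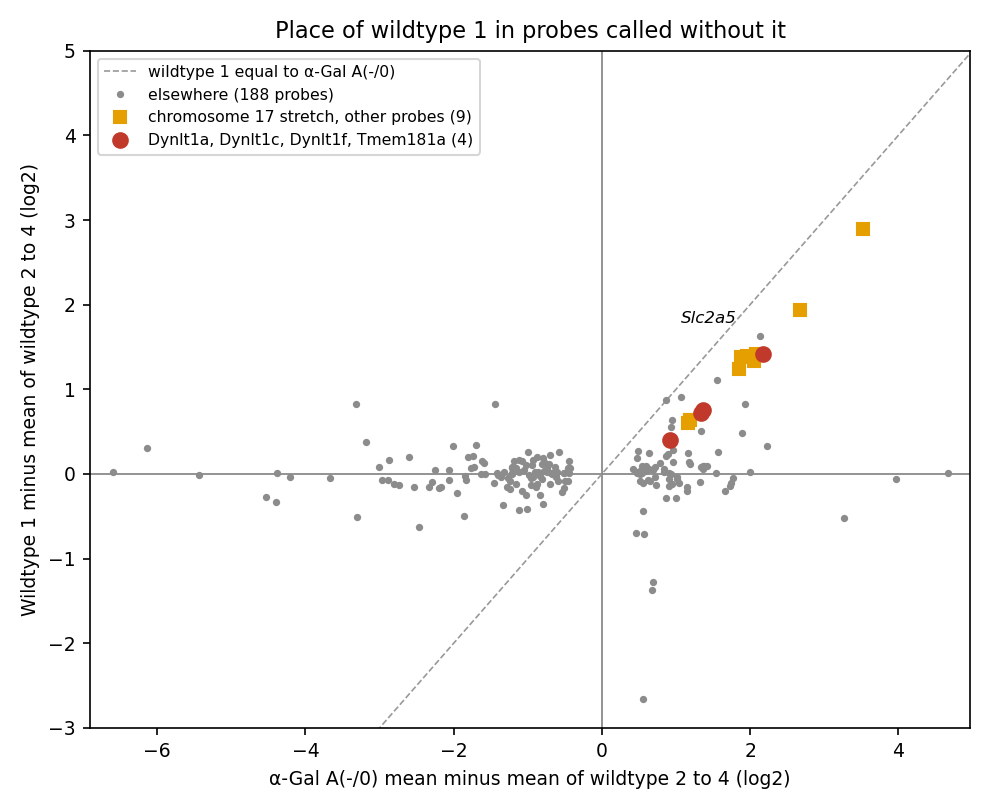
Wildtype replicate 1 minus the mean of wildtype replicates 2 to 4, against the α-Gal A(-/0) mean minus the same mean (both log2), for the 201 probes called with wildtype replicate 1 left out. The 13 probes of the chromosome 17 stretch, members included, lie above 0 and below the dashed line of equality with α-Gal A(-/0), and most of the 188 other probes lie near 0 on the vertical axis.

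Across the whole array this order of arrays was rare. In 9 of 34326 tested probes wildtype replicate 1 was at least 0.4 (log2) away from every α-Gal A(-/0) array and from every other wildtype array, and lay between them. Of these, 7 lay in the stretch, Dynlt1c, Dynlt1f and Tmem181a among them, and 6 of the 7 were well above background on all 8 arrays. The other 2 were on chromosome 4, 365 kb apart. Slc2a5, a fructose transporter, read 9.75, 9.61, 9.69 and 9.55 in α-Gal A(-/0) replicates 1 to 4 and 9.15, 7.59, 7.39 and 7.58 in wildtype replicates 1 to 4. Rere, a transcriptional corepressor, ran the other way and read 6.69, 6.15, 6.70 and 6.36 against 7.16, 7.60, 7.57 and 7.60. With a gap of 0.3 there were 18 such probes, 10 of them in the stretch, and with a gap of 0.5 there were 6, all in the stretch. The gaps were chosen after the data were seen.

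The 5 probes whose pattern was most like the mean of the Dynlt1 probes, of 34316 compared over 8 arrays, came from the same places. The 3 probes of the interval at the far end of the stretch had Pearson correlations of 0.989, 0.988 and 0.981, Slc2a5 0.981 and the interval probe at chr17:6457777-6457836 0.977. After the genotype means were removed, the correlations of the deviations were 0.959, 0.944, 0.931, 0.971 and 0.930. The arrays fall into genotypes and the deviations rest largely on wildtype replicate 1, so these are descriptions of likeness with no test.

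An interval on chromosome 6 carries a probe partly alike in sequence to one beside the copies. Its probe at chr6:135299310-135299369, plus strand, shares a run of 34 bases with the called probe beside Dynlt1f. It read 6.97, 6.13, 6.42 and 6.32 in α-Gal A(-/0) replicates 1 to 4 and 5.59, 5.36, 4.65 and 5.29 in wildtype replicates 1 to 4. The genotypes did not overlap, and the difference was 1.24 ± 0.24 (limma, adjusted p = 0.068). The other 2 tested probes of the interval, which shared no run of at least 30 bases with a probe of the stretch, also did not overlap between genotypes and differed by 0.60 ± 0.14 and 0.45 ± 0.11 (limma, adjusted p = 0.14 and 0.15). Whether the first probe read RNA of the chromosome 17 copies was not tested.

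The rest of the dynein machinery had a median difference close to that of all genes. In 6 lists of other dynein, dynactin and regulator genes, 57 genes were tested by their brightest probe. Of these 0 were called by limma, against 0.931% of all 23625 genes, and at that share nothing is read from this count. Of the 57 genes 9 had an unadjusted p under 0.05 in limma, a count with no share of all genes beside it. The methods' t-test also called 0 of the 57 genes. Their median difference was -0.03 (log2), against -0.02 over all genes. Of the 57 genes 46 lay within 0.25 of 0, again with no share of all genes beside it. The genotypes did not overlap in 8 of them (14.0%), against 8.42% of all genes.

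Among the other subunits of dynein 1, the 4 tested intermediate and light intermediate chains lay between -0.12 and 0.02, with Dync1i1, an intermediate chain that binds dynactin, at -0.12 ± 0.09. The relatives of the Tctex light chains, Tctex1d1 and Tctex1d2, differed by -0.23 ± 0.16 and -0.03 ± 0.07. The dim Tctex1d1 probe was well above background on 4 wildtype and 3 α-Gal A(-/0) arrays, so its difference has no exact size. Dynactin, the cofactor that makes dynein processive, was measured with 12 of 12 genes, which lay between -0.08 and 0.20. Its largest subunit, Dctn1, differed by 0.04 ± 0.07, and Capza1, an actin capping subunit, by 0.20 ± 0.07 (limma, adjusted p = 0.36).

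In dynein 2, the motor of transport inside cilia, Wdr60, an intermediate chain, differed by -0.48 ± 0.10 (limma, adjusted p = 0.085) and the other 3 genes lay within 0.08 of 0. The 18 adaptors and regulators had a median difference of -0.09, and 3 of them were higher in α-Gal A(-/0). Among them Hap1, the huntingtin-associated protein that couples cargo to dynein, differed by 0.44 ± 0.09 (limma, adjusted p = 0.085). Spdl1, a dynein adaptor at kinetochores, differed by -0.36 ± 0.21. Its dim probe was well above background on 4 wildtype but only 2 α-Gal A(-/0) arrays, so this difference has no exact size. Nin, a centrosomal anchor, differed by -0.20 ± 0.06 at its brightest probe. A second, dimmer Nin probe of 3 was called at -0.38 ± 0.06 (limma, adjusted p = 0.023). The 6 striatal markers had a median difference of 0.64, with 0 of 6 called by limma, against 0.931% of all genes. Of them 1 had an unadjusted p under 0.05, with no share of all genes beside it. Their summed linear signal ran from 14810.2 to 47898 over the α-Gal A(-/0) arrays and from 11809 to 33145 over the wildtype arrays, and its part in the Hap1 value was not tested.

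The axonemal dyneins, which beat cilia on ependymal cells, spread most widely of the 6 lists. Of 17 tested genes 0 were called by limma, against 0.931% of all genes, and the median was 0.03. An unadjusted p under 0.05 was found in 3, with no share of all genes beside it. Dnah14 differed by 1.04 ± 0.87 and Dnah6 by -0.64 ± 0.67, and neither passed an unadjusted p of 0.05 in limma. In Dnah14 α-Gal A(-/0) replicate 2 alone read 11.09 and the next highest of its genotype 7.21. Of the 5 ependymal markers 0 were called by limma, against 0.931% of all genes. Of them 2 had an unadjusted p under 0.05, a count with no share of all genes beside it. Their median difference was 0.27 (log2), with 3 of 5 higher in α-Gal A(-/0) and a range of -0.25 to 0.92. Their summed linear signal was 1725 to 2229.8 in α-Gal A(-/0) and 1796 to 2389 in wildtype. This sum weighs most on the brightest marker, Rarres2, which differed by -0.25, so it does not show the direction of most markers.

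**Figure D4:**
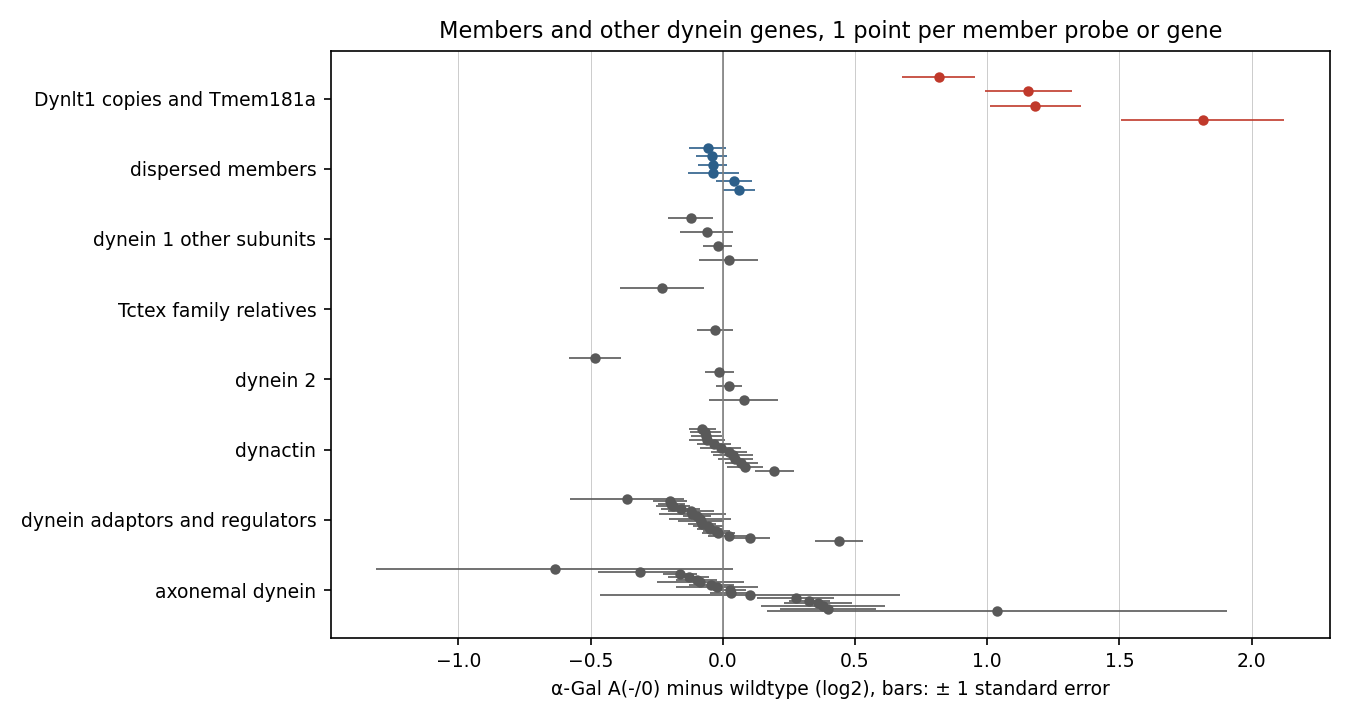
Genotype difference (α-Gal A(-/0) minus wildtype, log2) with bars of 1 standard error, 1 point per probe for the members and 1 point per gene, by its brightest probe, for 6 lists of other dynein genes. The 4 members on chromosome 17 lie at 0.82 to 1.81 and the dispersed members lie between -0.06 and 0.06. The other lists have medians between -0.13 and 0.03, with wide bars for some axonemal dyneins.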

How the data were processed

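Total RNA of the prefrontal cortex of 8 mice was labelled with Cy3 and hybridized to 1-colour Agilent mouse arrays by the authors. The deposited intensity values are processed signals from Agilent Feature Extraction 10.7.3.1, per the file headers detrended and not normalized between arrays. The mean signals and background medians of the same deposited intensity files served only the normexp alternative (offset 50). The authors' normalized value table was not used. Replicate spots were averaged per probe, and log2 values were quantile normalized together. Controls were dropped, as were 81 probes that had a non-uniform spot somewhere. A probe entered the test when 1 genotype or both had it well above background throughout (34326 of 55681 probes). The number of arrays limits the precision.

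The genotype contrast was fitted by limma 3.58.1 (lmFit, then eBayes; R 4.3.3, statmod 1.5.0). Its two-sided p-values were adjusted by Benjamini-Hochberg across the whole table, and an adjusted p under 0.05 was a call. The steps were tested on simulated data. Array quality was compared by an exact permutation test with 70 relabelings. Samples were grouped by their titles.

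The members and gene lists were chosen with earlier results of these data known. Named were all member probes, in each list the called genes and up to 3 with the largest differences, near the copies the called genes, up to 6 more with the lowest p and the nearest genes on both sides, the 5 probes most correlated with the Dynlt1 mean, and Gla and Actb. Gm9992, Rere, Dctn1, the second Nin probe and the chromosome 6 probe were named after their values were seen. Gene names are those of the array, transcripts and gene order were matched through RefSeq tables (GRCm38.p6), and the promoter sequences are from RefSeq. Alternatives were another scaling, background, filter and test, blocks for replicate number and slide row, each array left out, other choices of probes and distance and, added after the data were seen, values within slide rows, other gaps and a stricter filter on dim probes. Tables were made in Python 3.11.15 with pandas 2.3.3 and scipy 1.17.1, and figures with matplotlib 3.10.9.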

Additional observations from a re-analysis of the deposited data

Results flagged for a closer look

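In groups of 4 arrays, an array was marked when its gap to the nearest other array took more of the range of its genotype than Dixon's critical value for 4 values allows. Over 98 groups examined, 14 arrays were marked, and chance marks about 1 group in 20. Of these, 7 were wildtype replicate 1, and 5 of the 7 came from probes chosen for the place of this array or for likeness to the Dynlt1 mean, so their number cannot be set against chance. For Tmem181a it took a share of 0.896 and read 12.01, with the next wildtype array at 10.69. The 3 interval probes at the far end of the chromosome 17 stretch gave shares of 0.852, 0.879 and 0.911. The probes for Slc2a5 and Rere on chromosome 4 gave 0.885 and 0.924, and Tctex1d1, a Tctex relative, gave 0.909 with 5.84 against 5.36 in the next array.

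The others were single arrays without a shared pattern of genes. α-Gal A(-/0) replicate 2 stood apart for Dnah14 (0.933), Gm9992 (0.952) and Wdr34 (0.860, a log2 signal of 16.59 against 16.65). α-Gal A(-/0) replicate 1 stood apart for 1 Synj2 probe (0.865) and α-Gal A(-/0) replicate 4 for Spdl1 (0.922). The Spdl1 probe was well above background on only 2 α-Gal A(-/0) arrays, so little rests on its mark. Wildtype replicate 4 stood apart for Dnah14 (0.892) and Actr1b (0.864). Dynlt1c, Dynlt1f, Dynlt1a and the dispersed members had no array marked.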

How the results depend on the processing

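The differences of the Dynlt1 copies, of the copies against the dispersed genes and of Tmem181a kept their direction under every alternative run. Leaving out each array in turn, they ran from 0.98 to 1.21, from 1.01 to 1.23 and from 1.68 to 2.17 (log2). With the Dynlt1a probe alone, the 1 probe listed for a single copy though 59 of its 60 bases recur beside Dynlt1f, the first 2 were 0.82 and 0.84, and no such probe was found for Tmem181a, so that alternative was not run. The calls were less stable. Of the 4 chromosome 17 members, 3 were called with the 75th percentile shift, 3 with limma's trend and robust setting and 0 with the methods' t-test, without the filter on dim probes, with the replicate block or with the slide row block. Over all probes 303 were called, against 89 by the methods' t-test, 149 with the slide row block and 188 to 265 with 1 array left out (188 without wildtype replicate 3, 196 without replicate 4 and 201 without replicate 1). Near the copies the 3 calls became 9 with normexp, 1 without the filter, 0 by the methods' t-test, 0 with the slide row block and 0 to 9 with 1 array left out. Among other dynein genes 1 was called with normexp (Hap1), 2 with trend and robust (Hap1 and Wdr60) and 0 to 1 with 1 array left out (Hap1 without wildtype replicate 2, Wdr60 without α-Gal A(-/0) replicate 3). The replicate numbers do not pair the mice: deviations of same-numbered arrays correlated by -0.09, 0.14, 0.02 and 0.15. In no number did both arrays match each other best. With the replicate block 157 probes were called in all, 0 near the copies and 0 among other dynein genes, and the member differences did not change. With 4 arrays a genotype and probes shared between copies, the level of a single copy is not resolved.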
